A study of Papio hamadryas with 14 samples.

Results

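Fatty acid oxidation and peroxisome genes are described here in whole kidneys of baboons (Papio hamadryas), over 4 fetal stages and in adults. The group is a list of 49 named genes, and 44 of them had a probe set that the array annotation gives to that gene alone, among 9580 measured genes. For each gene the probe set with the highest mean of log2(signal + 16) over the fetal arrays was used. Of the 44 measured members, 30 were bright enough for testing by their mean over all fetal arrays, among 5278 tested genes in all. The other 14 are given by their values. AMACR, SCP2, HACL1, ACSL3 and PEX13 were not analysed here. By location, 22 measured members are mitochondrial (18 tested), 13 are peroxisomal (9 tested), ECI2 is known from both organelles, and 8 are acyl-CoA synthetases, fatty acid carriers or the uptake receptor CD36 (2 tested).

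Fatty acids are joined to coenzyme A by synthetases before they are burned. Long chains then pass the mitochondrial membranes as carnitine esters, and each turn of beta-oxidation (dehydrogenase, hydratase, second dehydrogenase, thiolase) releases acetyl-CoA and passes electrons to the respiratory chain. Peroxisomes shorten very long and branched chains with enzymes of their own, which peroxins import or whose organelle they build. In the mature kidney the proximal tubule, which reabsorbs most of the filtered solute, takes much of its energy from fatty acids and is rich in peroxisomes.

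Kidneys were taken at 60 days of gestation (60dG, 2 arrays), at 90dG, 125dG and 160dG (3 arrays each), and from adults of 6, 12 and 7 years (adult replicates 1, 2 and 3). Fetal replicates are called biological in the labels, which name no treatment. The RNA of each kidney was read on a human Affymetrix array, of 1 type for all fetal samples and of another for all adult samples, so age and array type cannot be told apart in any comparison with adults. The probes follow human sequence, and how far baboon transcripts differ at each probe was not tested. In whole kidney, fewer cells of a type and less RNA per cell cannot be told apart.

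The tissue label was set against 7 measured kidney genes (PAX2, PAX8, LHX1, CDH16, WT1, NPHS1 and SLC12A1), whose summed signal was 4874 to 6355 on the adult arrays and 4785 to 7308 on the fetal arrays. Single genes of that list moved apart, and its median log2 difference between adult and 160dG was -1.41, with 1 of 7 genes higher in adults. A pair of arrays carried markers of other tissues. The 7 measured adrenal genes summed to 7729 on 60dG replicate 2, against 281 to 577 on the other fetal arrays, and the steroid enzyme CYP17A1, picked after its values were seen, had a signal of 4960 there and 8.7 on 60dG replicate 1. The 8 measured genes of striated muscle summed to 17695 on adult replicate 3, where the myosin light chain MYL1 reached 8655, and to at most 1118 on the other arrays. On 90dG replicates 2 and 3 the GAPDH control gave 2.46 and 3.43 times as much signal at its 3′ as at its 5′ end, and 1.62 to 1.99 times on the other fetal arrays. The part of these features in the results below was not tested, and the main counts are also given without them.

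Between the ends of the fetal series, 11 of the 30 tested members were higher at 160dG than at 60dG and none was lower (limma, Benjamini-Hochberg adjusted p under 0.05). That is 36.7% of the members, where 11.6% of all tested genes were called, 6.92% higher and 4.72% lower. The list was chosen with earlier results of these data known, so these shares are a description and no test of the list. The called members were SLC27A2, CROT, ACADSB, ACSM3, ACSL1, ACAT1, ACAA2, PHYH, ACOX2, ACADM and HSD17B4, and all but HSD17B4 differed by at least 2-fold. The brightness limit is on the mean over all fetal arrays, most of them later than 60dG, so a gene can pass it through later stages. At 60dG the log2 means of ACSM3 (6.77), PHYH (7.34) and ACSL1 (7.44) were below that limit (7.60). The same limit was applied to all tested genes. The estimate was above 0 for 29 of the 30 members (96.7%) and for 49.2% of all tested genes, and 18 members (60.0%) had a p under 0.05 before adjustment, all of them higher at 160dG, against 13.0% of all tested genes higher and 12.0% lower. All differences given with an SE are on the log2(signal + 16) scale. Without 60dG replicate 2, fewer of all tested genes were called in either direction too. Member counts with a 60dG array left out are therefore not comparable with the main count. When the array with adrenal markers, 60dG replicate 2, was left out, 10 members were called and the call of HSD17B4 was lost. Without 60dG replicate 1 the count was 7, and the calls of ACAA2, ACADM, PHYH and HSD17B4 were lost, with a single array left at 60dG.

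**Figure D1:**
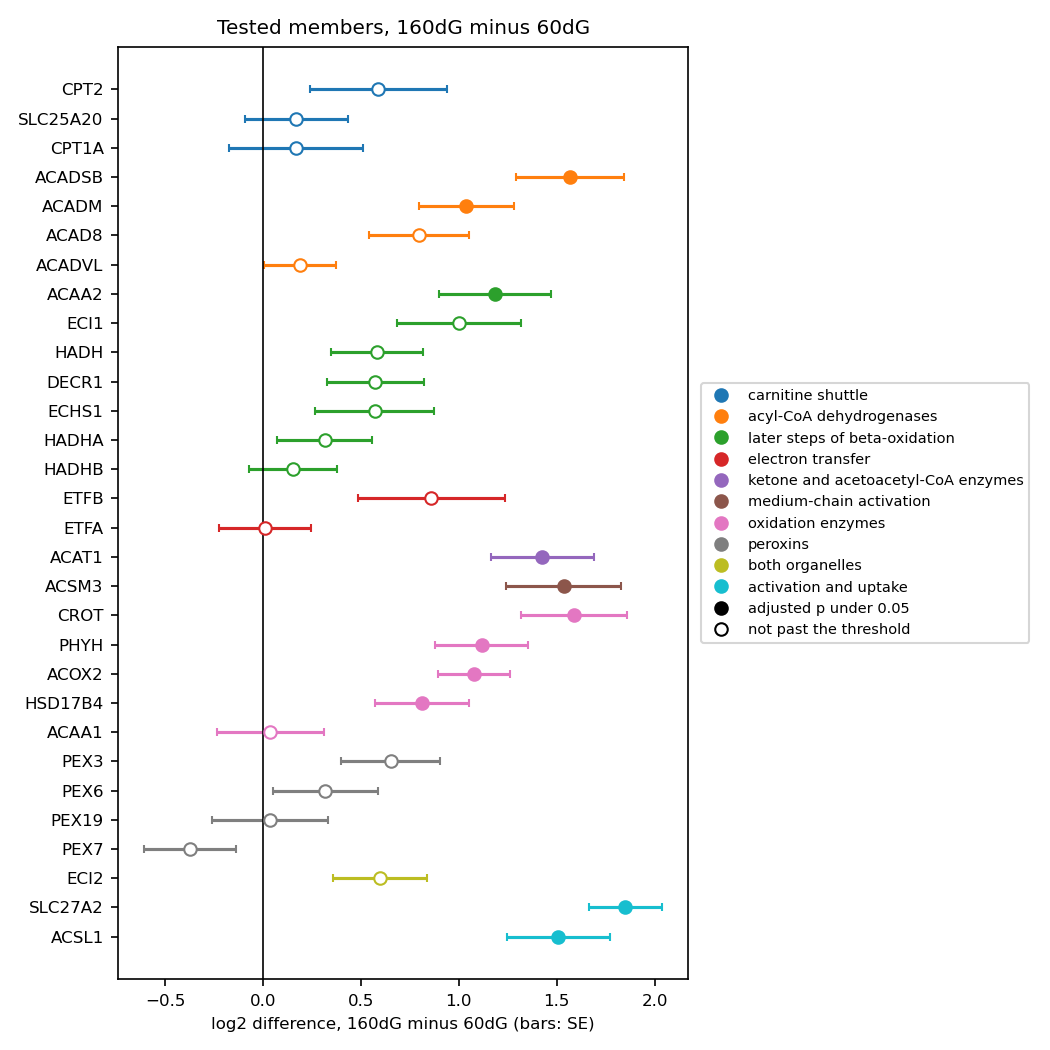
Log2 difference between 160dG and 60dG for the 30 tested members, ordered by role. Points are limma estimates, bars their SE, and filled points have an adjusted p under 0.05. The 11 filled points lie between 0.81 and 1.85, and among peroxins and the carnitine shuttle no point is filled.

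Of the members that activate fatty acids or take them up, 2 were tested and both passed. SLC27A2, a transporter that also joins very long chains to coenzyme A, had signals of 401 and 484 at 60dG, 1425, 1072 and 1018 at 90dG, 1706, 1447 and 1586 at 125dG, 1477, 1582 and 1855 at 160dG, and 2397, 2139 and 1541 in adults. Every 90dG, 125dG and 160dG array lay above both 60dG arrays, and the gap was wider than the spread within any fetal stage. The log2 difference between 160dG and 60dG was 1.85 ± 0.19 (SE; limma, adjusted p = 2.56e-05), the largest of the 30 tested members. A second probe set of the gene gave 1.46.

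ACSL1, the long-chain acyl-CoA synthetase, had signals of 157 and 158 at 60dG, 193, 214 and 130.5 at 90dG, 214, 319.5 and 266 at 125dG, 618, 448 and 392 at 160dG, and 2976, 3467 and 3039.7 in adults. Its 60dG and 90dG arrays overlapped, the 125dG arrays lay above both, and all 160dG arrays lay above every earlier array. It was higher at 160dG than at 60dG by 1.51 ± 0.26 (SE; limma, adjusted p = 0.00201), and its second probe set gave 1.48. The course between these ends differed on that second probe set, where the 90dG arrays (251, 309 and 197) all lay above the 60dG arrays (144 and 161) and the 125dG arrays (161, 207 and 204) overlapped those of 90dG. ACSM3, a mitochondrial synthetase for medium chains, had signals of 95.4 and 90.3 at 60dG, 204, 208 and 161 at 90dG, 242, 309 and 147 at 125dG, 351, 240.2 and 318 at 160dG, and 679.9, 279 and 341 in adults. All arrays after 60dG lay above both 60dG arrays, and the 125dG arrays overlapped those of 90dG and of 160dG. The log2 step between 160dG and 60dG was 1.53 ± 0.29 (SE; limma, adjusted p = 0.0036).

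ACSL5, another long-chain synthetase below the test's brightness limit, had signals of 107 and 91.9 at 60dG, 75.5, 163 and 137 at 90dG, 122, 98.7 and 137 at 125dG, 109, 151 and 184 at 160dG, and 331, 458 and 488 in adults. Its 160dG arrays lay just above both 60dG arrays, with the 90dG and 125dG arrays on either side, and all adult arrays were above all fetal ones. ACSL4, which prefers polyunsaturated chains such as arachidonate, reached at most 125 in adults and ranged over the fetal arrays from 78.8 to 184.

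In the carnitine shuttle, none of the 3 tested genes passed between 160dG and 60dG, also before adjustment. CPT1A, which makes the carnitine ester at the outer membrane and is the main control point of the pathway, had signals of 193 and 189 at 60dG, 223, 121 and 98.9 at 90dG, 243, 241 and 224 at 125dG, 210.1, 332 and 144 at 160dG, and 68.3, 139.5 and 56.4 in adults. The 160dG and 60dG arrays overlapped, and the difference was 0.17 ± 0.34 (SE; limma, adjusted p = 0.824). SLC25A20, the carrier for acylcarnitines through the inner membrane, had signals of 243 and 374 at 60dG, 324, 353 and 469 at 90dG, 258, 336 and 397 at 125dG, 311, 439 and 292 at 160dG, and 472, 652 and 569 in adults. Its fetal stages overlapped throughout, with a difference of 0.17 ± 0.26 between 160dG and 60dG (SE; limma, adjusted p = 0.757). CPT2, which rebuilds the acyl-CoA inside, had signals of 118 and 183 at 60dG, 161, 376 and 199 at 90dG, 189, 168 and 265 at 125dG, 183, 209 and 319 at 160dG, and 286, 308 and 393 in adults. One 60dG array lay within the 160dG range, and the difference of 0.59 ± 0.35 did not pass (SE; limma, adjusted p = 0.332).

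Of the 5 acyl-CoA dehydrogenases, which take the first step of each turn, 4 were tested and 2 passed. ACADSB acts on short branched chains from isoleucine and had signals of 136 and 298 at 60dG, 469, 525 and 501 at 90dG, 524, 576 and 425 at 125dG, 811, 604 and 513 at 160dG, and 424, 578 and 301 in adults. All arrays of later fetal stages lay above both 60dG arrays, which themselves differed by more than 2-fold, the higher value being that of the replicate with adrenal markers. At 160dG the log2 level exceeded that of 60dG by 1.57 ± 0.28 (SE; limma, adjusted p = 0.00219), and it was 2.09 ± 0.28 without that replicate and 1.04 with it as the only 60dG array.

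ACADM, the medium-chain dehydrogenase whose loss is the commonest inherited disorder of fatty acid oxidation, had signals of 223 and 316 at 60dG, 499, 394 and 303 at 90dG, 412, 372 and 364 at 125dG, 602, 446 and 664 at 160dG, and 980.4, 697 and 797 in adults. The 160dG arrays lay above both 60dG arrays, while one 90dG array was below the higher 60dG value. It was higher at 160dG by 1.04 ± 0.24 (SE; limma, adjusted p = 0.0121). ACADVL, the very-long-chain enzyme, had signals of 678 and 696 at 60dG, 762, 888 and 953 at 90dG, 694, 720.3 and 642 at 125dG, 883, 637 and 862 at 160dG, and 1555, 1334 and 1017 in adults. The 160dG and 60dG arrays overlapped and the difference was 0.19 ± 0.19 (SE; limma, adjusted p = 0.596).

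ACAD8, the isobutyryl-CoA dehydrogenase of valine breakdown, had signals of 166 and 159 at 60dG, 235, 235 and 165 at 90dG, 224, 191 and 275 at 125dG, 322, 227 and 344 at 160dG, and 375, 280.5 and 319 in adults. All 160dG arrays lay above both 60dG arrays, but the difference of 0.79 ± 0.26 missed the threshold (SE; limma, adjusted p = 0.0595). ACADS, the short-chain enzyme, was too dim to test and lay between 56.7 and 170 on the fetal arrays.

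Among the later enzymes of mitochondrial beta-oxidation, 1 of 7 tested genes passed between 160dG and 60dG. ACAA2, the thiolase that splits off acetyl-CoA, had signals of 311 and 563 at 60dG, 762, 1145 and 964 at 90dG, 1249.7, 882 and 910.0 at 125dG, 886, 776 and 1338 at 160dG, and 4607, 5393 and 4511 in adults. Every later fetal array lay above both 60dG arrays, and the 90dG, 125dG and 160dG arrays overlapped. The log2 step between 160dG and 60dG was 1.18 ± 0.28 (SE; limma, adjusted p = 0.0141). The call was lost when the probe sets of each gene were averaged (difference 0.88, adjusted p = 0.0505 in limma).

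ECI1, an isomerase needed for unsaturated chains, had signals of 153 and 109 at 60dG, 218, 394 and 421 at 90dG, 236, 186 and 154 at 125dG, 239, 225 and 385 at 160dG, and 362, 306 and 229 in adults. Its highest fetal values were on 90dG replicates 2 and 3, the arrays with the high 3′ to 5′ ratio, and all 160dG arrays lay above both 60dG arrays. At 160dG the log2 level exceeded that of 60dG by 1.00 ± 0.32 (SE; limma, adjusted p = 0.0563), just short of the threshold. DECR1, the dienoyl-CoA reductase for polyunsaturated chains, had signals of 736 and 695 at 60dG, 819.5, 1136 and 653 at 90dG, 839, 984 and 944 at 125dG, 1013, 838 and 1448 at 160dG, and 3111, 2725 and 3133 in adults. Its 160dG arrays lay above both 60dG arrays, with a mean difference of 0.57 ± 0.25 (SE; limma, adjusted p = 0.16), which did not pass.

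HADH, the short-chain hydroxyacyl-CoA dehydrogenase, had signals of 354 and 431 at 60dG, 542, 565 and 355 at 90dG, 548, 574 and 603 at 125dG, 536, 505 and 772 at 160dG, and 1195, 1186 and 1155 in adults. The 160dG arrays lay above both 60dG arrays, and the difference of 0.58 ± 0.24 did not pass (SE; limma, adjusted p = 0.135). HADHB, the thiolase subunit of the trifunctional protein for long chains, had signals of 740.4 and 789 at 60dG, 838, 1082 and 1335 at 90dG, 745, 808 and 951 at 125dG, 792, 712 and 1090.3 at 160dG, and 1416, 1255 and 1489 in adults. Its highest fetal mean was at 90dG, and its 160dG and 60dG arrays overlapped (difference 0.15 ± 0.22, SE; limma, adjusted p = 0.749). HADHA, the other subunit of that complex, and the hydratase ECHS1 differed between 160dG and 60dG by 0.32 ± 0.24 and 0.57 ± 0.30 (SE) and did not pass either.

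Electrons from the dehydrogenases pass through the electron transfer flavoprotein, whose subunits ETFA and ETFB did not pass. ETFA had signals of 781 and 759.6 at 60dG, 756, 939.8 and 640.1 at 90dG, 652, 566 and 518 at 125dG, 870.3, 552 and 970.4 at 160dG, and 1069, 924 and 831 in adults. The 160dG and 60dG arrays overlapped, all 125dG arrays lay below both 60dG arrays, and the difference between 160dG and 60dG was 0.01 ± 0.24 (SE; limma, adjusted p = 0.983). ETFB had signals of 146 and 124 at 60dG, 274, 352 and 289.6 at 90dG, 334, 284 and 114 at 125dG, 259, 179 and 367 at 160dG, and 447, 565 and 382 in adults. All 160dG arrays were above both 60dG arrays, but 125dG replicate 3 was below them, and the difference of 0.86 ± 0.38 did not pass (SE; limma, adjusted p = 0.169). ETFDH, which hands the electrons on to ubiquinone, was too dim to test and had signals of 166, 122 and 190.3 at 160dG, against 143 and 133 at 60dG, with overlap.

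ACAT1 is the mitochondrial acetoacetyl-CoA thiolase of ketone body and isoleucine metabolism. Its signals were 1059.9 and 1017 at 60dG, 1812, 2286 and 1341 at 90dG, 2218, 2021 and 1749 at 125dG, 3857, 1922 and 3010.4 at 160dG, and 6852, 7390.0 and 5308 in adults. All later fetal arrays lay above both 60dG arrays, and the 160dG arrays spread widely, with replicate 2 within the 125dG range. The log2 step between 160dG and 60dG was 1.43 ± 0.26 (SE; limma, adjusted p = 0.00287).

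OXCT1, which activates acetoacetate when ketone bodies are used, was below the brightness limit and had signals of 134 and 54.8 at 60dG, 84.0, 138 and 47.0 at 90dG, 194, 223 and 109.6 at 125dG, 292, 337 and 229.8 at 160dG, and 459, 317 and 451 in adults. All 160dG arrays lay above every 60dG, 90dG and 125dG array. The difference of means was 1.54 between 160dG and 60dG, and with no brightness limit it passed both that test and the linear trend. BDH1, the hydroxybutyrate dehydrogenase, had signals of 82.2 and 71.4 at 60dG, 118, 236 and 184 at 90dG, 153, 119.9 and 97.3 at 125dG, 164, 105 and 231 at 160dG, and 218, 304 and 144 in adults. Its later fetal arrays all lay above both 60dG arrays, and the stages after 60dG overlapped.

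Of the 5 tested peroxisomal oxidation enzymes, 4 were higher at 160dG than at 60dG. CROT, which turns shortened acyl chains into carnitine esters for export to mitochondria, had signals of 277 and 194 at 60dG, 258, 388 and 301 at 90dG, 536, 452 and 293 at 125dG, 727, 881 and 604 at 160dG, and 613, 510.3 and 661 in adults. All 160dG arrays lay above every earlier array, whereas the 90dG and 60dG arrays overlapped. The difference between 160dG and 60dG was 1.59 ± 0.27 (SE; limma, adjusted p = 0.00167).

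ACOX2, the oxidase for branched chains and bile acid precursors, had signals of 236 and 274 at 60dG, 514, 436 and 440.2 at 90dG, 503, 499.5 and 471 at 125dG, 577, 479 and 618 at 160dG, and 475, 952 and 505 in adults. Both 60dG arrays lay below all later fetal arrays. The difference between 160dG and 60dG was 1.08 ± 0.18 (SE; limma, adjusted p = 0.0016). PHYH, the hydroxylase that starts alpha-oxidation of phytanic acid, had signals of 144 and 147 at 60dG, 323, 323 and 289.8 at 90dG, 180.4, 229.9 and 217 at 125dG, 372, 246 and 407 at 160dG, and 793, 825 and 758 in adults. The 125dG arrays were the lowest after 60dG, below all 90dG and all 160dG arrays, and every one of these was above both 60dG arrays. The difference between 160dG and 60dG was 1.12 ± 0.24 (SE; limma, adjusted p = 0.00653).

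HSD17B4, the bifunctional enzyme for branched and very long chains, had signals of 389 and 356 at 60dG, 394, 597 and 523 at 90dG, 442, 403 and 389.8 at 125dG, 868, 483 and 704 at 160dG, and 1303, 1429 and 1605 in adults. The 160dG arrays lay above all 125dG and 60dG arrays, with a wide spread among them. Its difference of 0.81 ± 0.24 was the smallest called (SE; limma, adjusted p = 0.0423), and the call was lost under 11 of 23 alternatives, 7 of which left out a single fetal array. ACAA1, the peroxisomal thiolase, had signals of 244 and 299.5 at 60dG, 615, 427 and 331 at 90dG, 294, 325 and 363 at 125dG, 284, 205 and 368 at 160dG, and 1024, 1239 and 856 in adults. All 90dG arrays lay above both 60dG arrays, while the 160dG arrays overlapped those of 60dG, with a difference of 0.04 ± 0.27 between 160dG and 60dG (SE; limma, adjusted p = 0.952). A second ACAA1 probe set, below the brightness limit, gave a difference of 0.56. There all 160dG arrays (171.8, 129.7 and 202.9) lay above both 60dG arrays (110.6 and 104.5).

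PECR, a peroxisomal enoyl-CoA reductase, and EHHADH, the bifunctional enzyme for straight chains, were too dim to test. PECR had signals of 66.5 and 92.4 at 60dG, 142, 30.2 and 94.9 at 90dG, 132, 112 and 102 at 125dG, 191, 212 and 196 at 160dG, and 509, 429.8 and 446 in adults. Its 160dG arrays lay above all earlier arrays. EHHADH had signals of 96.5, 11.9 and 114 at 160dG, against 62.5 and 67.8 at 60dG, with overlap. ECI2, the isomerase of both organelles, had signals of 369 and 512 at 60dG, 518, 661 and 535 at 90dG, 537, 711 and 549 at 125dG, 780.4, 483 and 783 at 160dG, and 1033, 1323 and 1529 in adults. A 160dG array fell below one 60dG array, and the difference of 0.60 ± 0.24 did not pass (SE; limma, adjusted p = 0.137).

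No peroxin passed between 160dG and 60dG among the 4 tested in limma, and 1 did before adjustment. PEX3, which anchors the insertion of peroxisomal membrane proteins, had signals of 502 and 358 at 60dG, 518, 348 and 355 at 90dG, 628, 573 and 572 at 125dG, 728, 492 and 858 at 160dG, and 1772, 1222 and 1051 in adults. The lowest 160dG array fell below the higher 60dG array, and the difference was 0.65 ± 0.25 (SE; limma, adjusted p = 0.116). A second probe set above the brightness limit gave 0.13. PEX7, the import receptor for a class of enzymes that includes PHYH and ACAA1, had signals of 394 and 364 at 60dG, 294, 319 and 342 at 90dG, 211, 295 and 342 at 125dG, 299, 351 and 229.7 at 160dG, and 351, 381 and 603 in adults. It was the only tested member whose estimate was below 0, at -0.37 ± 0.24 (SE; limma, adjusted p = 0.365), and all 160dG arrays were below both 60dG arrays.

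PEX19, the carrier for new membrane proteins, had signals of 269 and 165 at 60dG, 370.1, 176 and 209 at 90dG, 292, 389.9 and 311 at 125dG, 231, 197 and 224 at 160dG, and 346, 152 and 333 in adults. The stages overlapped, with a difference of 0.04 ± 0.30 between 160dG and 60dG (SE; limma, adjusted p = 0.956). PEX6, an ATPase that recycles import receptors, had signals of 130.5 and 186 at 60dG, 169, 152 and 232 at 90dG, 176, 191 and 198 at 125dG, 166, 189.8 and 247 at 160dG, and 266, 243 and 144 in adults. It also overlapped between 160dG and 60dG, with a difference of 0.32 ± 0.27 (SE; limma, adjusted p = 0.525). PEX14, a docking protein, and PEX11A, a factor of peroxisome division, were too dim to test and overlapped between these stages on the probe sets used. A second PEX14 probe set, of almost the same brightness, gave a difference of 0.42. There all 160dG arrays (168.6, 181 and 170.6) lay above both 60dG arrays (112.9 and 139.9).

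The carriers and CD36 were all too dim to test. FABP3, the heart-type carrier, had signals of 200.2, 181 and 188 at 160dG, against 178 and 109 at 60dG. FABP4, the carrier of adipocytes and some endothelium, had 91.2, 118 and 61.3 at 160dG, against 70.6 and 94.9 at 60dG, and the receptor CD36 had 91.5, 67.1 and 63.9 at 160dG, against 82.8 and 77.5 at 60dG. The stages overlapped for FABP4 and CD36, whereas the FABP3 arrays did not on the probe set used. A second, dimmer FABP3 probe set gave a difference of -0.16. There the 160dG arrays (105.4, 55.4 and 118.4) overlapped those of 60dG (87.4 and 117.9). FABP1, the liver-type carrier, which is found in the proximal tubule of the human kidney, had at most 36.5 on any fetal array.

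**Figure D2:**
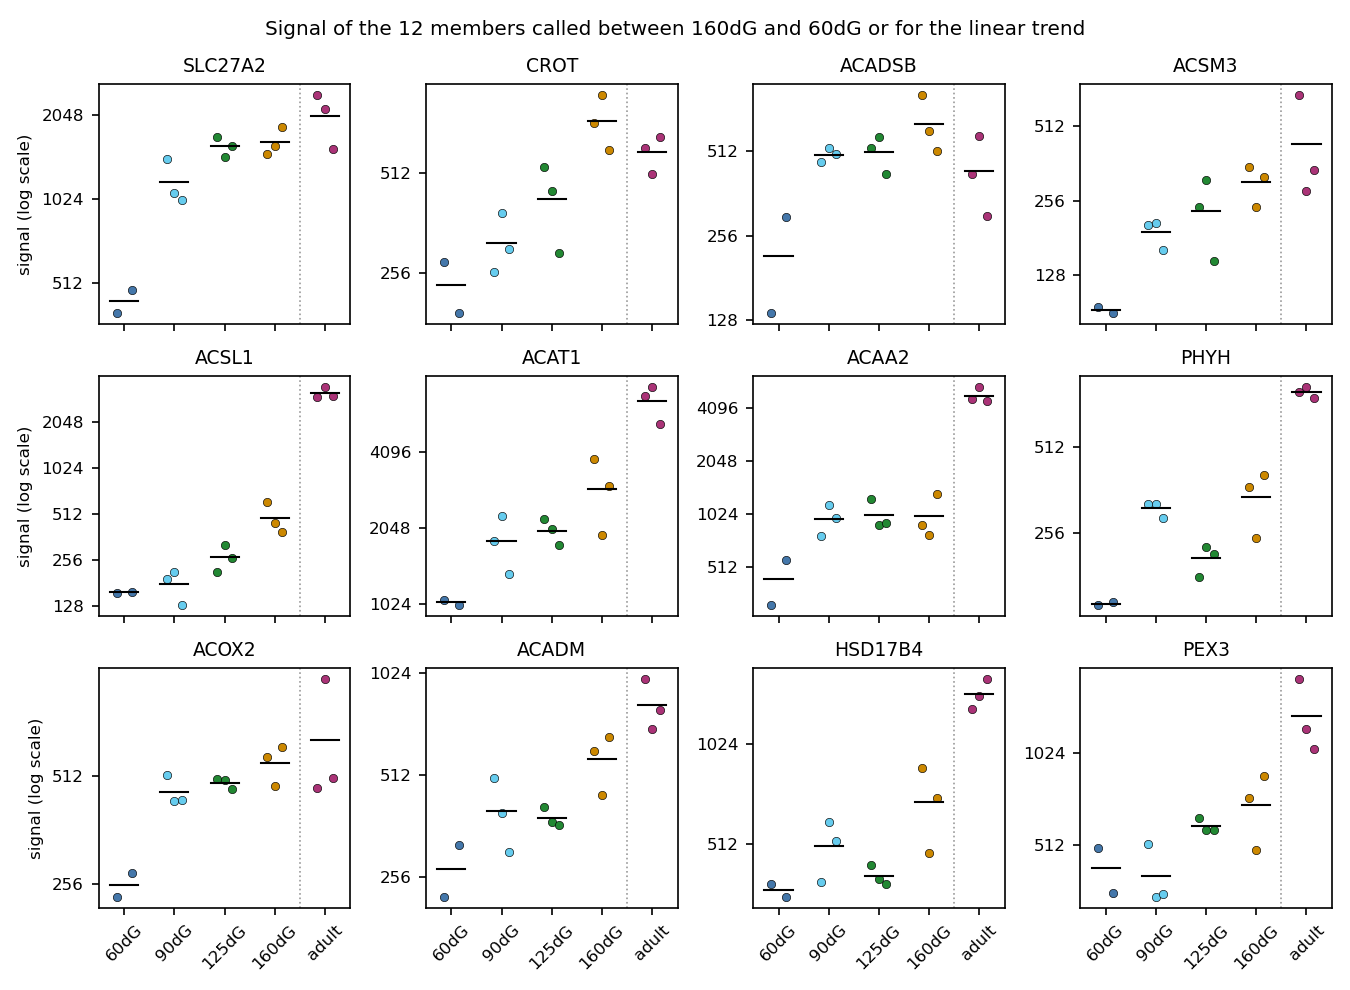
Signal (log scale) on each array for the 12 members called between 160dG and 60dG or for the linear trend. Points are arrays, bars are group means, and the dotted line marks the change of array type before the adult group. SLC27A2 had already reached 1018 to 1425 at 90dG, whereas ACSL1 on the probe set shown was at 130.5 to 214 there and at 392 to 618 at 160dG. On the second ACSL1 probe set, which is not plotted, the 90dG arrays were at 197 to 309.

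The next question was at which stage these differences arose. Across the 4 stages together, 11 of 30 tested members differed, against 18.2% of all tested genes (limma moderated F, adjusted p under 0.05). They were the same as the members called between 160dG and 60dG, except that ECI1 passed (adjusted p = 0.0405) and HSD17B4 did not (adjusted p = 0.0693). Leaving out 60dG replicate 1 gave a count of 3 and leaving out 60dG replicate 2 gave 7. Fits without a 60dG array leave 1 array at that stage and are given without the share of all tested genes. Their member counts, here and for the trend below, are not comparable with the main counts. A rising linear trend in log2 per 10 days was called for 9 members and a falling one for none, against 4.83% and 4.91% of all tested genes. Before adjustment 17 members rose and 0 fell, against 12.0% and 13.1% of all tested genes. The 9 were ACADM, ACADSB, ACAT1, ACOX2, ACSL1, ACSM3, CROT, SLC27A2 and PEX3, with slopes from 0.08 for PEX3 to 0.16 for CROT, ACSL1 and SLC27A2. PEX3 was at the threshold (limma, adjusted p = 0.0491), and its trend was lost under 17 of the 23 alternatives tried, such as averaged probe sets and no brightness limit. Without 60dG replicate 2 there were 7 rising trends. The lowest trend count with 1 array left out was 6, for the first array of 60dG and for replicates 1 and 3 of 160dG.

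Between 90dG and 60dG, 6 of 30 members were higher at 90dG and none lower, against 5.53% and 3.58% of all tested genes. Before adjustment 11 were higher and 0 lower, against 14.7% and 11.2%. They were SLC27A2 with 1.36 ± 0.19, ECI1 with 1.26 ± 0.32, ACADSB with 1.23 ± 0.28, ACAA2 with 1.14 ± 0.28, PHYH with 1.02 ± 0.24 and ACOX2 with 0.82 ± 0.18 (log2 difference ± SE, limma). Only 1 call was left without 60dG replicate 1, 3 without its partner replicate 2, and 1 without 90dG replicates 2 and 3, the arrays with the high 3′ to 5′ ratio. The remaining member was SLC27A2 in both cases with 1. Each of these fits leaves a single array in a stage and is given without the share of all tested genes. Its count is therefore not comparable with the main count. Between 125dG and 90dG, 0 members passed in limma, against 5.17% of all tested genes, and 6 members (20.0%) reached an unadjusted p below 0.05, against 23.9% of all tested genes. Leaving out 90dG replicate 1 gave 2 calls, of ECI1 and SLC27A2. Between 160dG and 125dG, 0 members passed in limma, against 0.322% of all tested genes, and 5 members (16.7%) had an unadjusted p below 0.05, against 8.26%.

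The share of each called difference already present at 90dG was read as a description, with no test. Of the difference between 160dG and 60dG, 96.4% was present at 90dG for ACAA2, 91.4% for PHYH, 78.8% for ACADSB, 76.3% for ACOX2 and 73.7% for SLC27A2. It was 60.0% for ACSM3, 53.4% for ACAT1, 50.9% for ACADM and 49.7% for HSD17B4. It was 25.3% for CROT. For ACSL1 the share depends on the probe set, with 9.54% for the one used and 43.9% for the second, of almost the same brightness. In a comparison of 160dG with 90dG, added after these values were seen, 3 members were higher at 160dG, against 7.65% of all tested genes. ACSL1 differed by 1.36 ± 0.24 (SE; limma, adjusted p = 0.00238), CROT by 1.19 ± 0.24 (SE; limma, adjusted p = 0.00612) and PEX3 by 0.73 ± 0.22 (SE; limma, adjusted p = 0.0396). CROT was called under every alternative tried for this comparison, ACSL1 under all but the stricter brightness limit, which leaves it out, and PEX3 was lost under 11 of 22 alternatives.

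Mitochondrial and peroxisomal members were then set side by side, without a test of their difference. Among the 18 tested mitochondrial members 5 were higher at 160dG than at 60dG, and among the 9 tested peroxisomal members 4 were, all of them enzymes. Over all 44 measured members, the 160dG arrays lay wholly above those of 60dG for 21 and wholly below for 2 (PEX7 and FABP1), against 18.3% and 18.2% of all measured genes. Without 60dG replicate 2 these counts were 28 and 3, against 33.2% and 28.9%. The median log2 difference between 160dG and 60dG was 0.59 for the 22 mitochondrial and 0.32 for the 13 peroxisomal genes, and 0.01 for all 9580 measured genes. Among tested genes alone it was 0.59 for the 18 mitochondrial, 0.65 for the 9 peroxisomal and -0.01 for all 5278. The order of the mitochondrial and peroxisomal medians thus depends on whether genes too dim to test are counted. Inside the group of 13 peroxisomal genes the median was 1.08 for the 7 enzymes and 0.10 for the 6 peroxins. Other probe sets of the peroxins, which did not enter this median, gave 1.25 for PEX6, 0.93 for PEX19 and 0.42 for PEX14. They gave 0.13 and -0.01 for PEX3 and -0.28 for PEX7. Apart from the 0.13 of PEX3, all of these were below the brightness limit. The size of the gap between enzymes and peroxins thus depends on the probe sets. The median of all measured peroxisomal members ranged from 0.19 without 160dG replicate 3 to 0.58 without 160dG replicate 2. That of all measured mitochondrial members ran between 0.42 and 0.76 with the same arrays left out. All 22 mitochondrial members had a positive difference, and for 12 of them all 160dG arrays lay above both 60dG arrays. The same held for 5 of the 13 peroxisomal members, all of them enzymes.

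**Figure D3:**
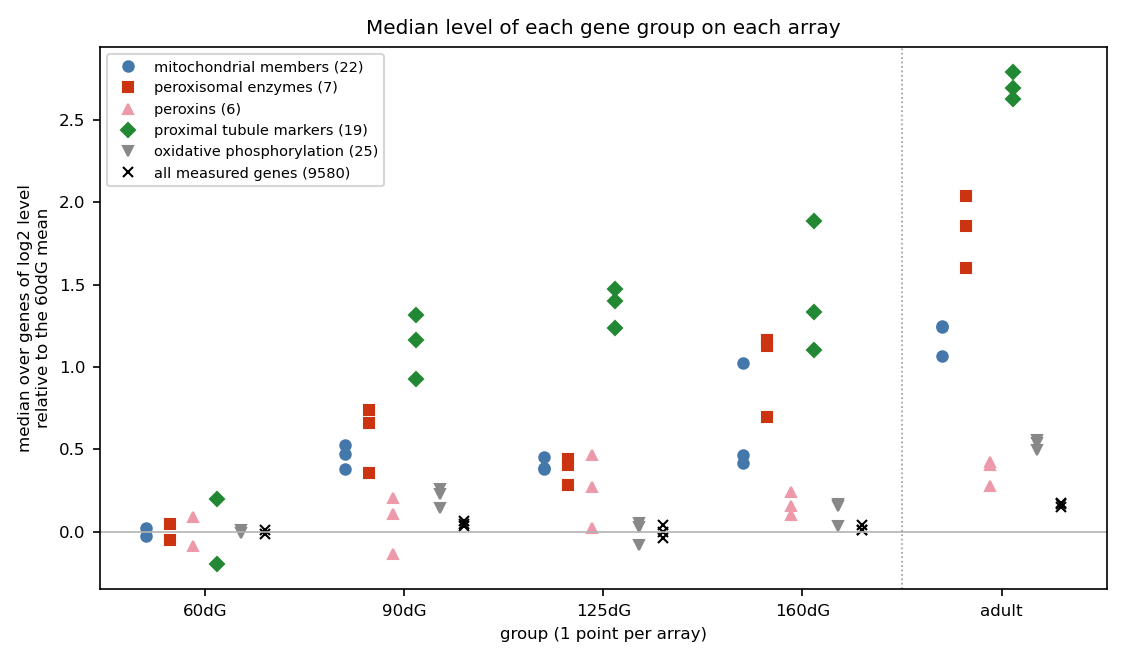
Median log2 level relative to the 60dG mean, for each gene group on each array, so that the 60dG points centre on 0. The 3 arrays of 160dG gave 0.42 to 1.02 for mitochondrial members, 0.70 to 1.16 for peroxisomal enzymes, 0.10 to 0.24 for peroxins and 1.10 to 1.89 for proximal tubule markers. Adult arrays, right of the dotted line, are of another array type.

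Genes of the proximal tubule were higher along with these members. Of 15 tested proximal tubule markers, 14 were higher at 160dG than at 60dG and none was lower, against 6.92% and 4.72% of all tested genes. There were 13 such calls when 60dG replicate 2 was left out, and 9 when replicate 1 was. The summed signal of the 19 measured markers was 13852 to 29634 at 160dG, against 4787 to 5863 at 60dG. The widest differences were those of GATM, an enzyme of creatine synthesis, with 3.46 ± 0.53, the water channel AQP1 with 3.09 ± 0.23 and the cation transporter SLC22A2 with 2.81 ± 0.29 (log2 difference ± SE, limma). Relative to 60dG, the median of these markers reached 0.93 to 1.32 on arrays of 90dG, 1.24 to 1.47 on those of 125dG and 1.10 to 1.89 on those of 160dG. Among the 160dG arrays replicate 3 was highest and replicate 2 lowest in that median, and the same order of those 2 arrays held for the mitochondrial members and for the peroxisomal enzymes. What part the amount of proximal tubule has in the members' values was not tested.

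The subunits of oxidative phosphorylation, the respiratory chain and ATP synthase, were examined beside them. None of 25 tested genes passed between 160dG and 60dG in limma, against 11.6% of all tested genes. An unadjusted p below 0.05 was found for 4 of them, against 25.0%, and 1 passed without 160dG replicate 2. The median difference of these subunits was 0.13. On the 160dG arrays the median relative to 60dG was between 0.04 and 0.17, below the same 160dG array's median of the mitochondrial members. That difference between the lists was not tested. Of the liver genes, 0 of 3 tested passed in limma, with or without adjustment, while 2 differed over the 4 stages, against 18.2% of all tested genes. For 5 of 10 measured liver genes all 160dG arrays lay below both 60dG arrays, against 18.2% of all measured genes. The summed signal of the 10 liver genes was 1256 to 1518 at 160dG, against 1790 to 2435 at 60dG. Adipocyte genes summed to 501 to 600 at 160dG, against 437 to 454 at 60dG, and 0 of 2 tested passed in limma, 1 of them before adjustment. Endothelial genes summed to 3581 to 3633 at 160dG, against 2326 to 2579.7 at 60dG, with 0 of 8 tested passing in limma (3 before adjustment) and a median difference of 0.48 over 10 measured genes. Macrophage genes summed to 1168 to 1368 at 160dG, against 831 to 926 at 60dG, with 0 of 2 tested passing in limma, also before adjustment, and a median difference of 0.46 over 10 measured genes. The part of these cell types in the members' values was not tested.

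Other genes of the same pathways, not among the 49, were looked at in the same way. Of 13 tested genes of fatty acid oxidation and ketone metabolism outside the list, 2 were higher at 160dG than at 60dG and none was lower. Of all tested genes, 6.92% were higher and 4.72% lower. BDH2, a cytosolic hydroxybutyrate dehydrogenase, had signals of 299.9, 240.5 and 660.3 at 160dG, against 166 and 71.1 at 60dG, with a difference of 1.59 ± 0.42 (SE; limma, adjusted p = 0.0251). MMUT, the mutase that ends propionate breakdown, had 448, 270.5 and 437 at 160dG, against 163 and 209.7 at 60dG, with a difference of 0.96 ± 0.27 (SE; limma, adjusted p = 0.0327). Neither gene's groups overlapped. Of 9 other tested peroxisome genes only HAO2, a hydroxyacid oxidase, passed, with 1154, 422 and 1123 at 160dG, against 253 and 340.0 at 60dG, and a difference of 1.43 ± 0.39 (SE; limma, adjusted p = 0.027). These counts rest on single arrays. For fatty acid oxidation and ketone genes the count was 1 without either 60dG array or without 160dG replicate 1, and it was 0 when 160dG replicate 3 was left out. The gene left without 60dG replicate 2, where adrenal markers lay, was ECH1 and neither of those named. For the other peroxisome genes it was 0 when 60dG replicate 2 or either of replicates 1 and 3 of 160dG was left out, it was CAT in place of HAO2 without 60dG replicate 1, and it was 2 without 125dG replicate 3. ECH1 and CAT were named after their values were seen. The median difference between 160dG and 60dG was 0.41 for the 23 measured genes of fatty acid oxidation and ketone metabolism. It was 0.02 for the 24 measured peroxisome genes, against 0.01 for all measured genes. The 160dG arrays lay wholly above those of 60dG for 9 of the 23 and 4 of the 24. They lay wholly below for 1 and 2, against 18.3% above and 18.2% below among all measured genes. Whether these shares differ from those of the members was not tested.

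Of the 7 tested transcription factors and coactivators known to control these pathways, 3 were higher at 160dG than at 60dG and 0 were lower. The shares of all tested genes were 6.92% and 4.72%. Without 60dG replicate 2 only PPARA passed, and without 60dG replicate 1 only ESRRG and PPARGC1A did. PPARA, the fatty-acid-sensing receptor that switches on much of the pathway in liver, had signals of 195 and 240.4 at 60dG, 293, 328 and 236 at 90dG, 455, 274 and 455 at 125dG, 437, 516 and 484 at 160dG, and 515, 461 and 486 in adults. All 160dG arrays lay above both 60dG arrays, with a mean difference of 1.09 ± 0.24 (SE; limma, adjusted p = 0.00894). ESRRG, an orphan receptor of oxidative tissues, had signals of 591 and 391 at 60dG, 518, 741 and 562 at 90dG, 776, 617 and 623 at 125dG, 1067, 812 and 1075 at 160dG, and 1069, 733 and 959.8 in adults. Its 160dG arrays also lay above both 60dG arrays, with a mean difference of 1.00 ± 0.23 (SE; limma, adjusted p = 0.0105). The coactivator PPARGC1A, a partner of both, had signals of 300.4 and 164 at 60dG, 140.4, 328 and 283 at 90dG, 335, 414 and 444 at 125dG, 714, 622 and 707 at 160dG, and 450.5, 474 and 500.4 in adults. All 160dG arrays lay above every other array, adults included, and the difference between 160dG and 60dG was 1.54 ± 0.31 (SE; limma, adjusted p = 0.00497). ESRRA with 0.45 ± 0.20, RXRA with 0.29 ± 0.31, NRF1 with 0.05 ± 0.23 and PPARD with 0.03 ± 0.23 did not pass, and PPARG and TFAM were too dim to test. In adults PPARA was at 515, 461 and 486, against 437, 516 and 484 at 160dG, so the groups overlapped.

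Adult and 160dG kidneys were compared by values alone, since each group has its own array type. For 23 of the 44 measured members (52.3%) all adult arrays lay above all 160dG arrays, against 29.1% of all measured genes. For 2 members, CPT1A and PEX11A, all adult arrays lay below, against 20.7%. The mean was also at least 2-fold higher in adults for 11 of the 23, against 13.1% of all measured genes. These 11 were ACSL1, ACAA2, EHHADH, ACAA1, FABP1, DECR1, ACSL5, PHYH, ACAT1, PECR and HSD17B4. The median log2 difference was 0.51 for mitochondrial members, 1.15 for peroxisomal enzymes, 0.31 for peroxins and 0.12 for all measured genes. Outside the list, all adult arrays lay above all 160dG arrays for 17 of 23 other genes of fatty acid oxidation and ketone metabolism and for 13 of 24 other peroxisome genes.

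The widest gap was that of ACSL1, with 2976, 3467 and 3039.7 in adults, against 618, 448 and 392 at 160dG, a fold of 6.42 on the scale of signal + 16. Its second probe set differed by 0.96 in log2, against 2.68 for the one used, so the size of the gap depends on the probe set. ACAA2 had 4607, 5393 and 4511 in adults, against 886, 776 and 1338 at 160dG (fold 4.89), and its second, dimmer probe set differed by 0.91 in log2, against 2.29 for the one used. On the probe sets used, the adult arrays of both genes lay above every fetal array, by more than the spread within either group.

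The peroxisomal thiolase ACAA1, which did not pass between 160dG and 60dG, had 1024, 1239 and 856 in adults, against 284, 205 and 368 at 160dG (fold 3.55). EHHADH had 329, 318 and 196 in adults, against 96.5, 11.9 and 114 at 160dG (fold 3.90). Both enzymes act on straight chains in the peroxisome, and for both every adult array was above every fetal array. PHYH had a fold of 2.31, PECR of 2.21 and HSD17B4 of 2.13, also with no overlap.

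FABP1 had 129.5, 18.7 and 90.9 in adults, against 7.3, 8.1 and 11.9 at 160dG, and its fold of 3.25 depends on the pseudocount because the 160dG values are smaller than it. FABP4 reached 93.1, 576 and 161 in adults, against 91.2, 118 and 61.3 at 160dG, so 1 adult array carries its mean. The 5 measured adipocyte genes summed to 796 to 952 on the adult arrays, against 501 to 600 at 160dG. The part of fat tissue in these values was not tested.

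CPT1A went the other way, with 68.3, 139.5 and 56.4 in adults, against 210.1, 332 and 144 at 160dG (fold 0.42). Its second-brightest probe set was also lower in adults, by 1.78 in log2, while the dimmest was higher, by 1.24. PEX11A had 46.6, 40.6 and 62.0 in adults, against 131, 146 and 183 at 160dG (fold 0.39). Every adult array of PEX11A was below every fetal array. Probe sets of HADHA, PEX6, PEX14 and FABP3 also disagreed on the direction between adult and 160dG.

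Several members called in the fetal series were level with or below 160dG in adults. CROT had 613, 510.3 and 661 in adults, against 727, 881 and 604 at 160dG, and ACADSB had 424, 578 and 301 in adults, against 811, 604 and 513 at 160dG. ACOX2, ACSM3 and SLC27A2 also overlapped between the groups, with folds of 1.10, 1.33 and 1.22. Without adult replicate 3, which carried the muscle markers, 25 members lay above and 2 below, against 33.2% and 23.9% of all measured genes. With all 14 arrays quantile normalized, 25 lay above and 3 below, against 26.5% and 21.8%.

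**Figure D4:**
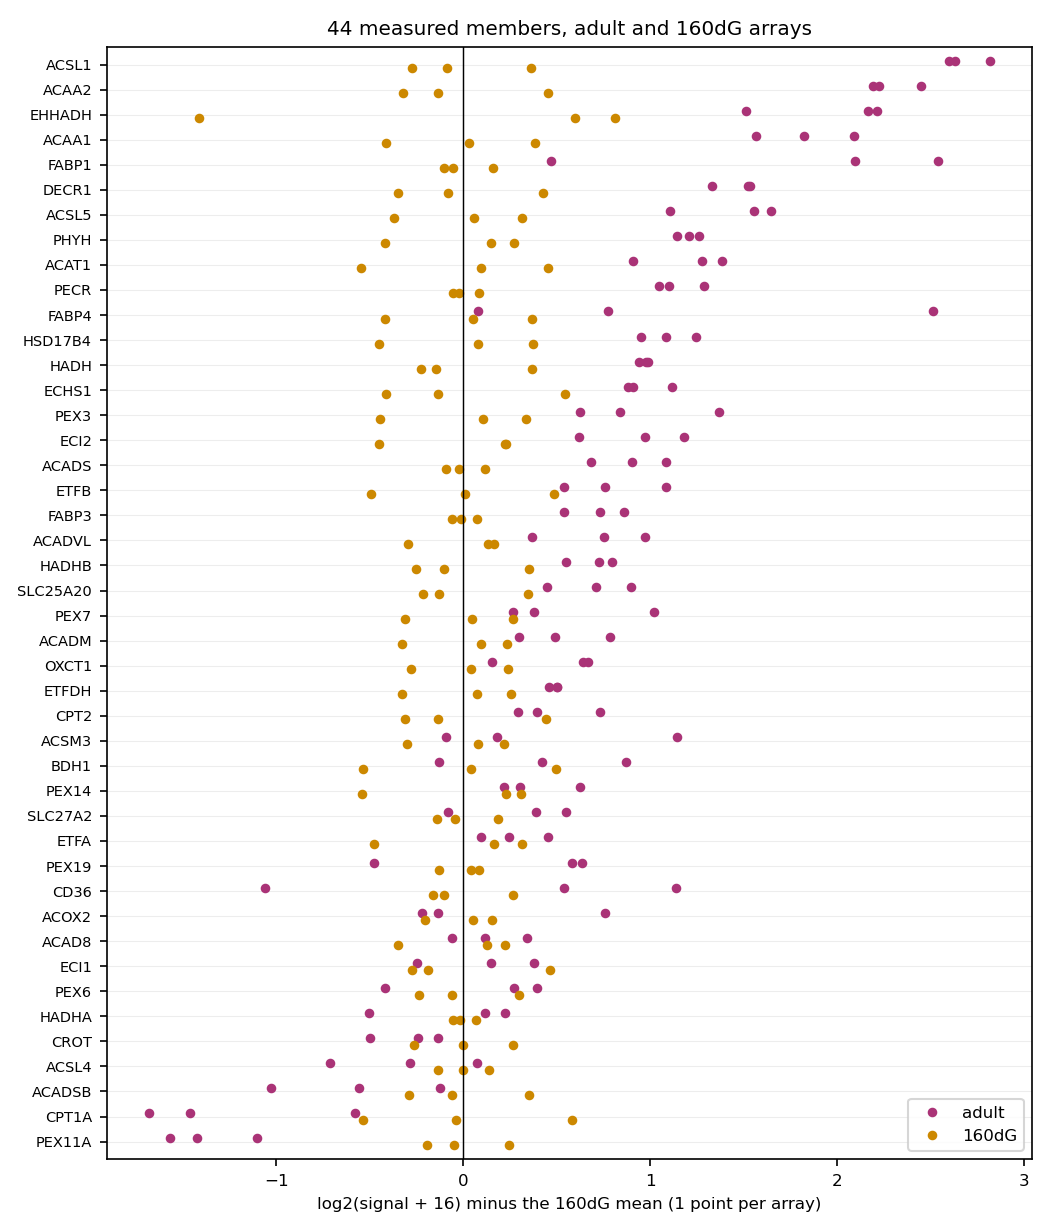
Log2(signal + 16) of the 44 measured members on each adult array and each 160dG array, minus the 160dG mean of the gene. Genes run from the highest adult difference (ACSL1, 2.68) to the lowest (PEX11A, -1.37), and 23 members have all adult points right of all 160dG points.

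Over the whole series, 60dG had the lowest of the 5 group means for 28 of the 44 members (63.6%), against 23.1% of all measured genes, and for 29 (65.9%) without 60dG replicate 2, against 28.2%. Adults had the highest mean for 36 members (81.8%), against 43.1% of all measured genes, and for 36 without adult replicate 3, against 42.8%. The highest fetal mean was at 160dG for 22 members (50.0%), against 26.3% of all measured genes.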

How the data were processed

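RNA of 14 whole baboon kidneys was measured on human Affymetrix arrays. The authors deposited 1 linear signal intensity per probe set and array, and the submitters' processing notes name GCOS as the software. The GCOS version, how signals were calculated, and their scaling were not given in the sources used here. Since arrays have no depth, precision rests on the number of arrays. Trimmed means of the fetal arrays lay within 1.02 times of each other, and those of all 14 arrays within 1.07 times, so no scaling was added.

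The deposited values covered 16186 probe sets, the same ones for both array types. Of these, 43 were controls, 14068 carried 1 gene symbol, 735 several and 1340 none, and only those with 1 symbol were named. Signals were taken as log2(signal + 16), with 1 probe set per gene, the one with the highest fetal mean. Fold changes on this scale understate changes of low signals. Genes whose fetal mean passed the median of all probe sets (log2 7.60, a signal of 178) were tested over the 11 fetal arrays by linear models in R 4.3.3 (package limma 3.58.1, moderated by eBayes with a trend in intensity, Benjamini-Hochberg over 5278 genes, threshold 0.05). The SE is limma's, and a linear trend was fitted in days. Adult arrays entered no test and were compared with 160dG by values alone. Figures were drawn with matplotlib 3.10.9.

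The members, the lists of other genes and the tests were chosen with earlier results of these data known. Every member may be named. Values in every array were set for members called between 160dG and 60dG or in the trend and for the 3 with the highest signal and the 3 steepest of each role. Regulators were all named, and of other lists up to 6 called genes with the largest difference. The comparison of 160dG with 90dG, and averaging of probe sets in the adult comparison, were added after the data were seen.

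On simulated data for the 5278 genes with 200 changed, the fit recovered 52.0% of 2-fold and 97.0% of 4-fold changes between 160dG and 60dG, with 2.80% and 5.37% false calls, and 73.0% and 98.0% of trends of that total size. Deviations from stage means correlated at -0.11 to 0.18 between arrays with the same replicate number (15 pairs, 2 of them over 0.1). Between arrays with different numbers they correlated at -0.18 to 0.17 (30 pairs, 4 of them over 0.1). The numbers were therefore not taken to pair arrays. Alternatives changed the pseudocount, brightness limit, normalization, variance model, array weights, replicate block, probe set rule, 3′ to 5′ covariate and the arrays used.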

Additional observations from a re-analysis of the deposited data

How the results depend on the processing

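The members higher at 160dG than at 60dG numbered 7 with the stricter brightness limit, which tests fewer genes, and 7 to 14 when 1 array was left out. The members differing over the 4 fetal stages numbered 6 with that limit and 3 to 13 when 1 array was left out. The count between 90dG and 60dG was 1 without 90dG replicates 2 and 3 together and 1 to 8 when 1 array was left out, and between 125dG and 90dG it was 1 with array weights and 0 to 2 when 1 array was left out. The cause of these shifts was not tested, other than that the stricter limit leaves out dimmer members. The shares of all tested genes under these settings are not given, so the shifts cannot be read as particular to the members. Leaving out 1 array gave 6 to 10 rising trends, 2 to 4 members higher at 160dG than at 90dG, 0 falling trends, 0 members lower at 160dG than at 60dG, 0 between 160dG and 125dG, and 23 to 26 members above 160dG in adults. It gave a median difference between 160dG and 60dG of 0.42 to 0.76 for measured mitochondrial and 0.19 to 0.58 for measured peroxisomal members. With the replicate number as a block, 8 members differed over the stages, 10 were higher at 160dG than at 60dG, and 8 had a rising trend. In that setting 4 differed between 90dG and 60dG and 3 were higher at 160dG than at 90dG. The numbers were not taken to pair the arrays. A tally covered members called between 160dG and 60dG, in the trend or in a step from or to 90dG, and the adult folds named. In it 780 values were counted as unchanged, 74 lost a call, 5 gained one, and 10 differences between adult and 160dG shifted by 1 SD or more. Unchanged meant the same side of the threshold in the fetal tests. In the adult comparison, which has no threshold, it meant the same direction and a shift under 1 SD. No adult difference turned its direction, and no fetal one did where either setting made a call. The direction of fetal values called in neither setting was not checked. Members outside that tally, such as ACAD8 and ECI1 between 160dG and 60dG, gained calls under some alternatives, and the counts above include them. The medians were not recomputed under the limit, variance, weight, block and covariate alternatives, which leave them as they are. With 2 arrays at 60dG, differences near 2-fold are often missed, and adult values rest on another array type.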
